A study of Macaca fascicularis with 132 samples.

Results

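Of the 38550 genes in the cynomolgus macaque count table, 48 had a low mean level in every control group of blood mononuclear cells and a clear mean level in at least 1 group with heterodimeric IL-15. They are called near silent by these means, and single control cultures could be higher, as given below for animal 38155. They were chosen by their measured levels. Counts of the 3 libraries of an animal and group were summed and scaled to the column total (CPM), and the CPM of 4 animals were averaged. A member had a mean under 1.5 CPM in each of 6 control groups and of at least 4 CPM in at least 1 of 5 IL-15 groups. In all, 25722 genes met the first condition and 11007 the second. The levels with and without IL-15 therefore describe the choice and are not evidence for it.

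Peripheral blood mononuclear cells (PBMCs), a mixture of T cells, B cells, natural killer cells and monocytes, came from 4 cynomolgus macaques (Macaca fascicularis). By the labels these are the females 38142 and 38155 and the males 38147 and 38157. Control cultures received 0 ng/ml of the cytokine and were taken at 0, 2, 6, 12, 24 and 48 h. Treated cultures received IL-15 bound to its receptor alpha chain at 40 ng/ml and were taken at the same times from 2 h on. No age, genotype or other treatment is given in the labels, and every group holds cells of the same 4 animals. The series' design text speaks of 6 animals, and others are not analysed here.

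IL-15 signals through a beta chain that it shares with IL-2 and through the common gamma chain, which activate JAK kinases and the transcription factor STAT5. The alpha chain of its receptor binds the cytokine and presents it to neighbouring cells. In blood the cytokine is known for keeping natural killer cells and memory CD8 T cells alive, for raising their cytotoxic function and for driving them to divide. The files give gene IDs without symbols, and 0 IDs could be matched in the reference table used here. The members are therefore described by their courses and not by their roles, and the labelled cell type could not be checked against its markers. In bulk samples, more cells of a type and more RNA per cell cannot be told apart.

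Each animal and group has 3 libraries. A library held 16423972 to 87944372 counts, with a median of 27185130, and the 44 sums 54376963 to 126025607. The low levels were read at this depth. Over the 24 control sums together a member had between 306 and 2413 counts, with a median of 1235, and 45 of the 48 had a count in every one of them. The member with most gaps was at 0 in 6 control sums. In its highest IL-15 group a member had between 1287 and 10475 counts over the 4 animals, with a median of 2276. The reads carry no molecular identifiers. A number of counts says nothing of the spread between cultures, and the labels do not say whether the 3 libraries are separate cultures. No member was removed by the filter on low counts, and all 48 were among the 18197 genes tested.

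**Figure D1:**
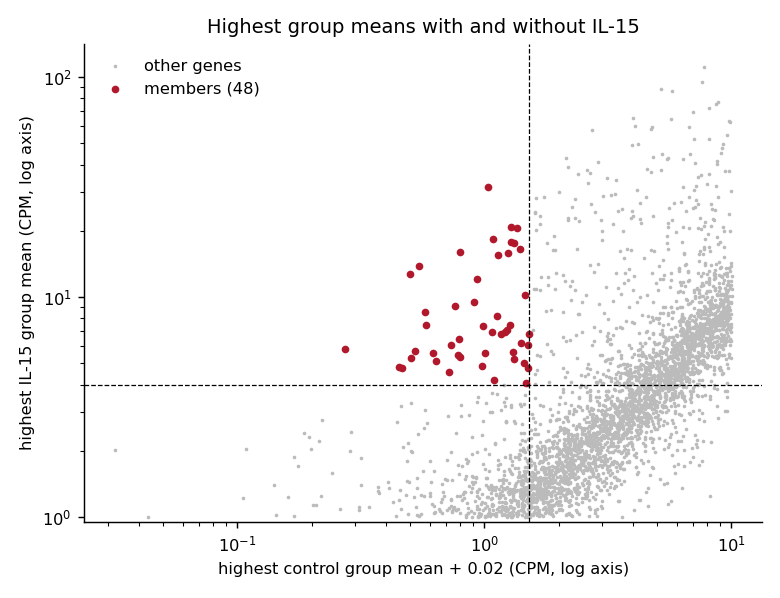
Highest mean of the 6 control groups (x axis, CPM plus 0.02, log axis) against the highest mean of the 5 IL-15 groups (y axis, CPM, log axis) for 3638 genes with at least 1 CPM on the y axis and under 10 CPM on the x axis. The 48 members are red, dashed lines mark the limits of 1.5 and 4 CPM, and most other genes lie close to the diagonal.

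The plot of highest means shows where the limits fall. The member nearest to the IL-15 limit stood at 4.08 CPM, and the nearest gene outside it at 3.99 CPM. On the control side the nearest member was at 1.49 CPM and the nearest gene outside at 1.55 CPM. Another 23 genes met the control limit and reached 3 to under 4 CPM with IL-15, of which 13 were highest at 48 h. A further 32 genes reached 4 CPM with IL-15 but had a control mean of 1.5 to under 2 CPM, of which 28 were highest at 48 h. Among the members themselves, 23 stayed under 1 CPM in every control group, 10 came to 1.3 CPM or more in at least 1 of them, and 7 did not reach 5 CPM with IL-15. The choice is a stretch of a continuous distribution and not a separate cloud.

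Most members came up late. With IL-15, 35 of the 48 had their highest mean at 48 h and another 9 at 24 h. The other 4 were highest at 12 h, and 0 at 2 or 6 h. Of the 11007 genes that reached 4 CPM in any IL-15 group, 35.6% were highest at 48 h, 11.4% at 24 h, 6.83% at 12 h and the others earlier; among the members these shares were 72.9%, 18.8% and 8.33%. The level of 4 CPM was first reached at 6 h by 2 members, at 12 h by 6, at 24 h by 10 and at 48 h by 30. At 2 h, 47 of the 48 were still under 1.5 CPM with IL-15, and at 12 h this held for 29. At 48 h it held for 0. The members are described below as 35 late genes, highest at 48 h, and 13 early genes, highest at 12 or 24 h. This grouping was made from the same levels and has no test.

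**Figure D2:**
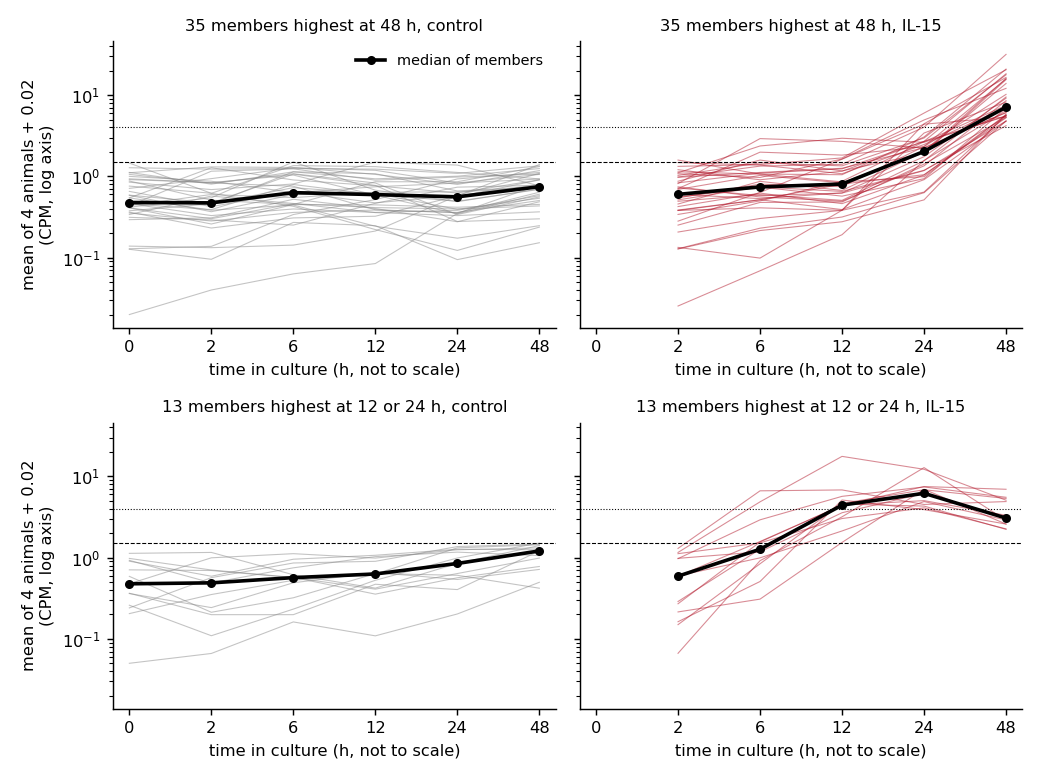
Mean level of each member (thin lines) and the median of members (thick line) over time, in CPM plus 0.02 on a log axis, for the 35 late genes (top) and the 13 early genes (bottom) in control cultures (left, grey) and with IL-15 (right, red). Dashed and dotted lines mark 1.5 and 4 CPM; late genes climb between 12 and 48 h, and the early median climbs from 2 h to 24 h and is lower at 48 h.

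The 35 late genes had a median under 1 CPM for the first 12 h of IL-15. It was 0.582 CPM at 2 h, 0.723 CPM at 6 h and 0.786 CPM at 12 h with IL-15, against 0.453, 0.612 and 0.578 CPM in control cultures of those times. It was 2.01 CPM at 24 h against 0.541 CPM, and 7.1 CPM at 48 h against 0.728 CPM. The greatest part of the climb thus lay between 24 and 48 h. The mean at 48 h was 5.28 times that at 24 h for the median late gene, with a range of 1.23 to 11.8 times. In 34 of 35 it was higher at 48 h than at 24 h in 4 of 4 animals, and in 26 the lowest animal at 48 h was above the highest animal at 24 h (6.07% of all genes tested). Late genes were grouped by their 48 h level, so nothing is read from these counts. The share of all genes for the first count was not computed. At 48 h the late genes lay 3.91 to 60.8 times above the control mean, with a median of 11.5 times.

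ENSMFAG00000035541 is the member with the highest CPM in its highest group, which reflects gene length as well as abundance. In control cultures it was at 0.574, 0.69, 0.801 and 1.51 CPM at 0 h in animals 38142, 38147, 38155 and 38157. At 24 h without IL-15 it was at 0.239, 0.248, 0.234 and 0.587 CPM in the same order, below the 0 h level of each animal. With IL-15 it was at 1.35, 1.99, 0.973 and 1.24 CPM at 12 h, all above the 12 h controls of 0.707, 0.384, 0.428 and 0.755 CPM. The animals then stood at 5.43, 4.58, 2.5 and 3.59 CPM at 24 h. At 48 h ENSMFAG00000035541 was at 42.4, 29.8, 35.5 and 19.1 CPM, against 0.4, 0.183, 0.978 and 0.778 CPM without IL-15. The lowest treated animal was far above the highest control animal, and the 12 single libraries with IL-15 ran from 12.8 to 48.3 CPM where the 12 control libraries ran from 0.117 to 1.14 CPM. The group means were 31.7 ± 9.85 CPM (SD, n = 4 animals) and 0.585 ± 0.36 CPM, and the fitted log2 fold change was 5.87 ± 0.39 (SE), up from 3.85 ± 0.38 at 24 h and 1.53 ± 0.35 at 12 h.

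The 13 early genes had a median well above that of the control cultures from 6 h on. It was 0.572 CPM at 2 h, 1.25 CPM at 6 h, 4.41 CPM at 12 h and 6.17 CPM at 24 h with IL-15, and 3.05 CPM at 48 h. In control cultures the median went from 0.47 CPM at 2 h to 1.19 CPM at 48 h. At its highest time an early gene lay 3.02 to 69.9 times above the control mean, with a median of 7.44 times. The level at 48 h was a median of 0.549 times the highest level, with a range of 0.223 to 0.926 times. It was lower than at the highest time in 4 of 4 animals for 8 of the 13, and 5 of the 13 were still at 4 CPM or more at 48 h. Early genes were grouped by their highest time and no share of all genes was computed, so nothing is read from these counts.

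ENSMFAG00000045396 has the highest CPM of the members whose highest group is not 48 h. It was also 1 of the 2 members with the lowest ratio of 48 h to highest level among the 8 that reached 4 CPM by 12 h. At 12 h with IL-15 it was at 17.8, 3.56, 31.2 and 18 CPM in animals 38142, 38147, 38155 and 38157, and without IL-15 at 1.23, 1.04, 0.976 and 0.629 CPM. All 4 treated animals lay above all 4 control animals, but animal 38147 lay well below the other treated ones. At 24 h it was at 22, 5.3, 17.7 and 3.63 CPM, so that animals 38142 and 38147 were higher than at 12 h and animals 38155 and 38157 were lower. At 48 h ENSMFAG00000045396 was at 5.61, 2.63, 9.64 and 2.39 CPM, still above the control levels of 0.922, 1.15, 2.19 and 0.944 CPM in each animal. The means with IL-15 were 4.84 ± 3.07 CPM (SD, n = 4 animals) at 6 h, 17.6 ± 11.3 CPM at 12 h, 12.2 ± 9.1 CPM at 24 h and 5.07 ± 3.38 CPM at 48 h. The fitted log2 fold change was 2.07 ± 0.55 (SE) at 6 h, 4.36 ± 0.59 at 12 h and 1.95 ± 0.54 at 48 h.

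ENSMFAG00000000702 is the other of the 2 members with the lowest ratio of 48 h to highest level among those 8. Its ratio was 0.487, where all 13 early genes had a median of 0.549 and a lowest ratio of 0.223. With IL-15 it was at 1.2, 1.31, 1.44 and 1.03 CPM at 6 h, a narrow range above the controls of 0.413, 0.411, 0.628 and 0.433 CPM. The animals spread by 12 h, at 6.1, 1.99, 7.46 and 2.64 CPM, with controls at 0.866, 0.433, 0.722 and 0.526 CPM. At 48 h the values with IL-15 were 1.92, 1.59, 4.18 and 1.16 CPM, and the control culture of animal 38155 was at 1.66 CPM, above 2 of the treated cultures of other animals. At 12 h animal 38155 was the highest and animal 38147 the lowest for both ENSMFAG00000045396 and ENSMFAG00000000702. At 24 h ENSMFAG00000000702 was at 5.93, 2.98, 6.81 and 1.44 CPM, and animal 38157 was then the lowest of the 4. The means at 12 h and 24 h were close, at 4.55 ± 2.65 CPM and 4.29 ± 2.51 CPM (SD, n = 4 animals). The fitted log2 fold change was 2.92 ± 0.37 (SE) at 12 h and 3.14 ± 0.38 at 24 h.

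**Figure D3:**
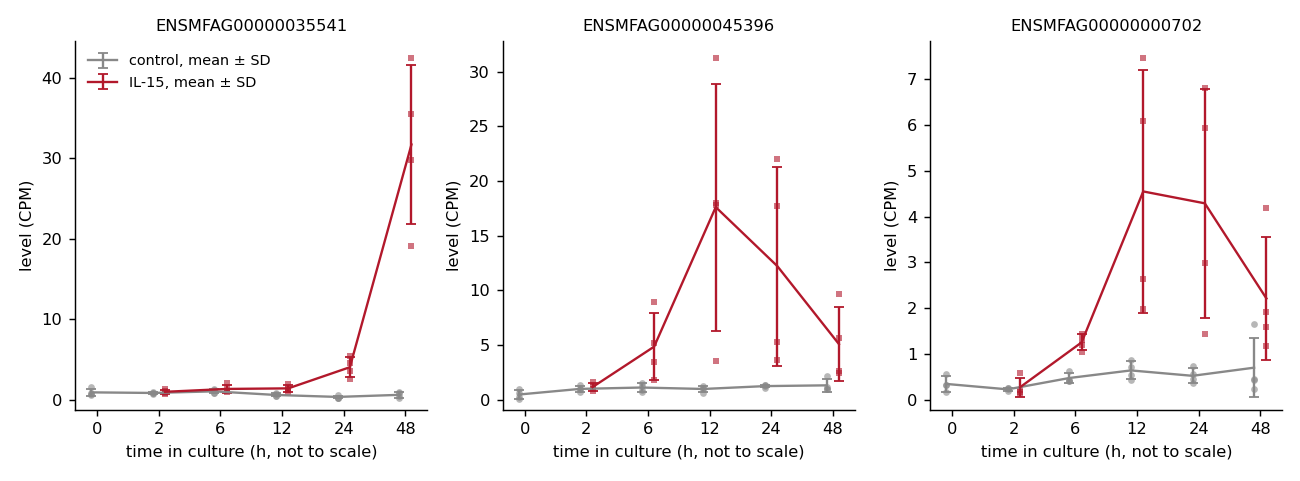
Levels of the 3 printed gene IDs in CPM (y axis, linear) over time in culture (x axis), with control cultures in grey and IL-15 cultures in red; small points are single animals, and lines with bars are the mean and SD of 4 animals. ENSMFAG00000035541 has a mean of 1.39 CPM at 12 h and of 31.7 CPM at 48 h with IL-15. ENSMFAG00000045396 has its highest mean at 12 h, and ENSMFAG00000000702 has close means at 12 h and 24 h (4.55 and 4.29 CPM). Both have a wide spread between animals at these times.

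The fit across all genes gives the same course, and since these contrasts chose the members the counts are a description. A gene is called where its adjusted p is under 0.05 by edgeR's quasi-likelihood method. With IL-15 against control, 2 members were called higher at 2 h, as 1.67% of all genes tested were. At 6 h this was so for 8 members (5.12% of all), by 12 h for 25 (17.5%), after 24 h for 42 (20%) and after 48 h for 46 (20.2%). At 48 h these were all 35 late genes and 11 of the 13 early genes, and at 6 h they were 2 late and 6 early genes. A late gene was called lower at 6 h (3.54% of all genes were) and 1 at 12 h (14%). The count of 2 at 2 h was 1 without animal 38147 or 38155, and the 8 at 6 h were 4 without 38142 and 5 without 38155. The call of a lower level at 6 h was lost without 38142, 38155 or 38157. The median fitted log2 fold change of the late genes went from 0.27 at 6 h through 0.65 and 2.07 to 3.64 at 48 h. That of the early genes was 1.46, 3.04, 3.14 and 1.95 at these times, and that of all genes tested lay between -0.05 and -0.01.

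Between successive IL-15 samples the members moved at different times, again in levels that the choice used. From 2 to 6 h, 13 of the 48 members were called higher (25.9% of all genes tested, edgeR), of which 8 were early genes. Over all members this is close to the share of all genes, so nothing about the members is read from it. From 6 to 12 h, 11 members were called higher (9.78% of all), of which 8 were early. From 12 to 24 h, 23 members were called higher (3.92% of all) and from 24 to 48 h 31 were (8.53% of all), and each of these was a late gene. The late genes changed by a median of 0.28, 0.07, 1.16 and 2.39 on the log2 scale over the 4 steps, and the early genes by 1.48, 1.57, 0.34 and -0.79. In the last step 1 early gene was called lower (5.11% of all genes tested were). The mean was lower at 48 h than at 24 h for 12 of the 13 early genes, and 48 h was not tested against 12 h. That 1 call was lost with any of the 4 animals left out. Without animal 38142, 2 members were called higher from 6 to 12 h and 7 from 12 to 24 h. The first of these counts was 5 without animal 38157, and the second was 15 without animal 38155.

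Some members changed in culture without IL-15, where the rule held only the group means low. At 24 h against 0 h, 6 members were called higher (30.1% of all genes tested; edgeR) and 9 lower (25.4%), and all 9 were late genes. At 48 h 11 were called higher (32.8% of all) and 8 lower (26.9%), and again all 8 were late genes. In the fit the late genes had a median log2 change of -0.40 at 24 h and of 0.08 at 48 h against 0 h. The early genes had 0.10 and 0.58, and without animal 38155 the early median at 48 h was 0.10. The fit scales by TMM and not by the column total, so these changes are not on the scale of the CPM. In CPM the control sum of the late genes averaged 20.3 at 0 h, 19.7 at 24 h and 25.9 at 48 h. That of the early genes averaged 6.93, 10.9 and 13.8. Without animal 38142 the 6 higher calls at 24 h were 3, and the 8 lower calls at 48 h were 5 without that animal and 4 without animal 38147. For 19 of the 35 late genes the control mean in CPM was lower at 24 h than at 0 h. The control mean was highest at 48 h for 14 of the 35 late genes and for 9 of the 13 early genes, but for 3 of those 13 when animal 38155 was left out, a count added after seeing the data. In 48 h control culture 11 of the 13 early genes were at 1.5 CPM or more in animal 38155, and 2 were in any other animal.

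**Figure D4:**
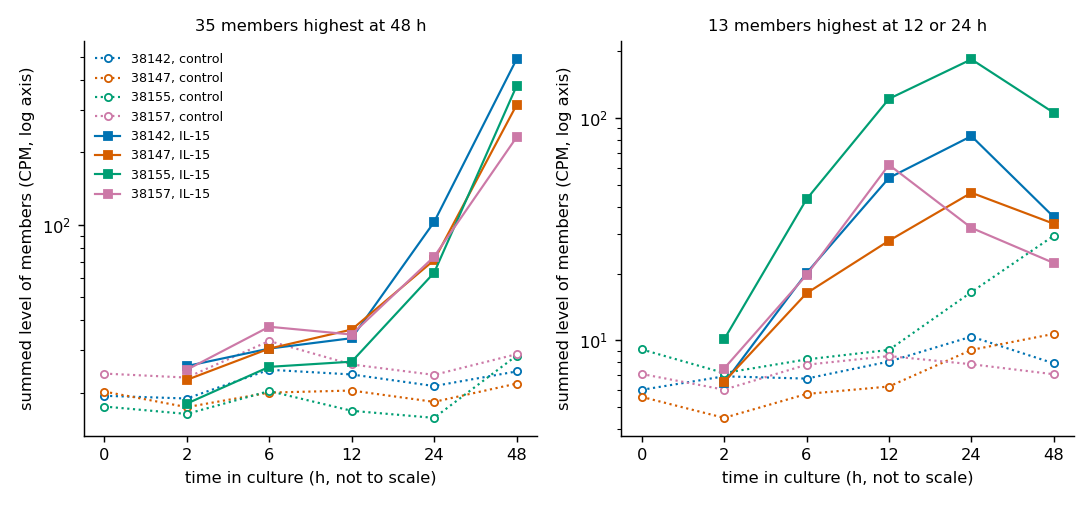
Summed CPM of the 35 late genes (left) and the 13 early genes (right) in each animal (colours) over time, on log axes; open circles with dotted lines are control cultures and filled squares with solid lines IL-15 cultures. The treated late sums stand at 231.1 to 488.2 CPM at 48 h in the order 38142, 38155, 38147, 38157, and the early sums of animal 38155 lie above those of the other animals with IL-15.

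Summed over members, the late genes gave 20.3 ± 2.72 CPM at 0 h (SD, n = 4 animals) and between 18.9 and 25.9 CPM on average in control cultures of later times. With IL-15 the sum was 33 ± 4.24 CPM at 12 h, 77.7 ± 17.2 CPM at 24 h and 352.9 ± 108.3 CPM at 48 h. By animal it was 488.2 CPM in 38142, 314.9 CPM in 38147, 377.7 CPM in 38155 and 231.1 CPM in 38157 at 48 h, against 24.5, 21.8, 28.5 and 28.9 CPM without IL-15. The treated sums were 8 to 19.9 times the control sums at 48 h and 3.11 to 4.82 times at 24 h. No treated animal overlapped a control animal at either time, but the genes were chosen and grouped by these levels, so nothing is read from it. Animal 38157 had the lowest treated sum at 48 h. Its control sum was the highest, though close to that of animal 38155 (28.9 and 28.5 CPM).

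The early genes together gave 7.63 ± 1.71 CPM at 2 h with IL-15, then 24.8 ± 12.4 CPM at 6 h, 66.5 ± 39.8 CPM at 12 h and 86.4 ± 68.6 CPM at 24 h (SD, n = 4 animals). At 24 h animal 38155 was at 184.2 CPM, and animals 38142, 38147 and 38157 were at 83.1, 46.2 and 32.1 CPM. At 48 h the animals stood in the same order, 38155 first, with 105.8, 35.9, 33.5 and 22.3 CPM. Control cultures of animal 38155 were also apart, with 16.5 CPM at 24 h and 29.6 CPM at 48 h where the other 3 animals had 7.81 to 10.4 CPM and 7.04 to 10.7 CPM. The treated sums were 4.11 to 11.2 times the control sums of the same animal at 24 h, with 38155 the highest, and 3.13 to 4.56 times at 48 h, with 38142 the highest.

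The animal that was most often highest was not the same for the late and the early genes. The rule used the mean of the animals, which the highest animal carries most, so this is a description with no test. At 48 h animal 38142 was the highest of the 4 for 30 of the 35 late genes, and animal 38157 was the lowest for 27 of them. At the highest time of each early gene, animal 38155 was the highest for 11 of 13. Of all 3917 genes that reached 4 CPM with IL-15 and were highest at 48 h, 36.2% had animal 38142 highest and 27.5% animal 38157 lowest, against 85.7% and 77.1% of the late genes. Of the 2003 such genes that were highest at 12 or 24 h, 37.3% had animal 38155 highest, against 84.6% of the early genes. Members of a set share their libraries, so these shares are descriptions of 4 animals and not of independent genes. At 48 h the treated sums of animals 38142, 38147, 38155 and 38157 had 70180781, 83712570, 89248083 and 96410207 counts. The animal with the highest late level then had the fewest counts and the one with the lowest level the most. At 24 h this order did not hold. The treated sums then had 74155873, 64869868, 82029378 and 100669423 counts, and the late genes summed to 102.6, 71.2, 63.1 and 73.6 CPM. The part of depth in the order of the animals was not tested, and neither was that of the library sets given below.

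**Figure D5:**
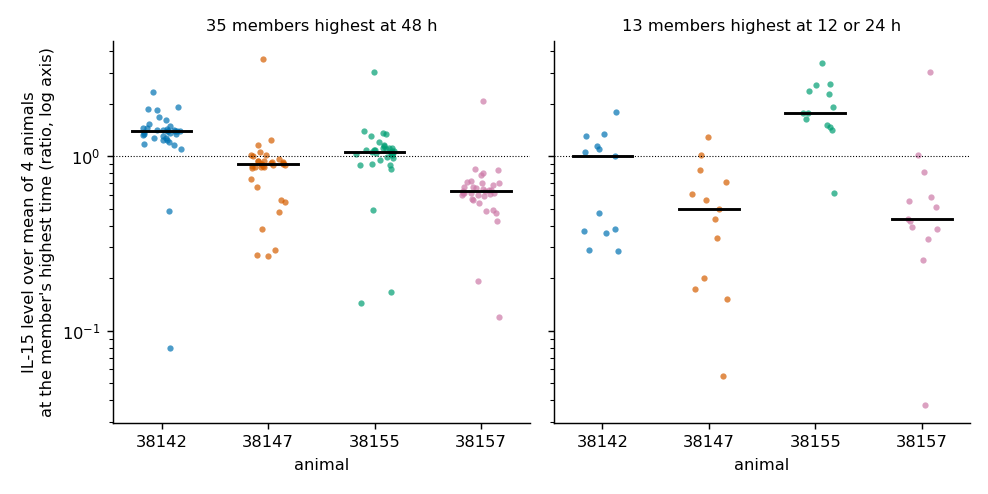
Level of each member in each animal with IL-15, divided by the mean of the 4 animals at the member's highest time (y axis, ratio on a log axis), for the 35 late genes (left) and the 13 early genes (right); bars are medians over members. Medians are 1.39, 0.9, 1.06 and 0.629 for animals 38142, 38147, 38155 and 38157 in the late genes and 1.01, 0.501, 1.78 and 0.437 in the early genes.

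The spread between animals was wide for both sets and wider for the early one. The SD of log2 CPM (with 0.5 CPM added) over the 4 treated animals at the highest time had a median of 0.464 for the late genes and 1.07 for the early genes. Over all 4615 genes with 4 to 31.7 CPM at 48 h with IL-15 the median was 0.226, and over the 4666 such genes at 24 h it was 0.268. Those genes were taken by level alone. The members' spread was read at the time that the choice used, and a limit on a mean admits genes that 1 animal lifts. The contrast is therefore a description. The highest animal was a median of 2.32 times the lowest for a late gene and 6.32 times for an early gene. For late genes, the highest of the 3 libraries of an animal was a median of 1.41 times the lowest. For early genes it was 1.27 times. Libraries of 1 animal thus lay closer together than animals did, though a range over 4 values tends to be wider than one over 3. A level of 4 CPM at the highest time was reached in 4 of 4 animals by 19 late genes and by 0 early genes, and in 1 animal alone by 2 late and 2 early genes.

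The limit of 4 CPM on a mean admitted a few members that came largely from 1 animal. In 6 of the 48, a single animal held over 60% of the summed level of the 4. The most uneven was a late gene at 20.2 CPM in animal 38147 at 48 h and at 0.442 to 0.93 CPM in the other 3, where the control culture of animal 38147 was itself at 2.38 CPM and the others at 0.108 to 0.684 CPM. Another was an early gene at 44 CPM in animal 38155 at 24 h and at 0.477 to 4.76 CPM in the other 3. Of the 6, animal 38155 was the high one in 4, animal 38147 in 1 and animal 38157 in 1. For these genes the mean of 4 animals describes no animal well.

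At the time of its highest level, nearly every member was higher with IL-15 in each animal. This held in 4 of 4 animals for 34 of the 35 late genes and for 13 of the 13 early genes. The share of all genes for which it held was not computed. The lowest treated animal was above the highest control animal for 31 of the 35 late genes at 48 h (9% of all genes tested), for 7 of the 9 members highest at 24 h (7.08% of all) and for 3 of the 4 highest at 12 h (5.64% of all). At the level of libraries, all 12 with IL-15 were above all 12 without it for 29 of the 35 late genes at 48 h (3.18% of all genes tested). The same held for 3 of the 9 members highest at 24 h (2.23% of all) and 3 of the 4 highest at 12 h (2.19% of all). Since the rule used these levels, nothing is read from the counts.

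An animal that took no part in the choice offers a view that the choice did not fix. The rule was applied to 3 animals, and the chosen genes were then read in the fourth at the time that was highest in the other 3. Leaving out animal 38142, 43 genes were chosen, of which 42 were higher with IL-15 in that animal and 37 reached 4 CPM there. For animal 38147 it was 45 of 45 higher and 27 at 4 CPM, for animal 38155 47 of 47 and 43, and for animal 38157 57 of 58 and 35. Of the 13693 genes with at least 1 CPM in some group, between 39.8% and 43.2% were higher with IL-15 in the left-out animal at 48 h and between 31.2% and 40.9% at 24 h. The median ratio of treated to control level in the left-out animal, with 0.5 CPM added to both, was 8.88, 4.58, 6.56 and 4.38 in the order of the animals. Early genes carried over in direction more than in level. All 10, 12, 12 and 13 of them were higher with IL-15, but 6, 2, 11 and 3 reached 4 CPM in the left-out animal, with the largest share in animal 38155.

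The effect of IL-15 in females was compared with that in males, a contrast that the rule did not use directly. The rule used the mean of the animals, which the highest animal carries most. The female 38142 was highest for 30 of the 35 late genes and the female 38155 for 11 of the 13 early genes. The log2 fold change of each animal, averaged over the 5 times, had a median over the members of 1.63 in females and 1.37 in males. It was higher in females for 35 of the 48 members, 12 of them early genes. The share of all genes was not computed and the choice is tied to these animals, so nothing is read from this count. The median of the difference was 0.27 with a median SE of 0.336. No member passed the test (limma; 0 of 18197 genes did, 0%), and the lowest adjusted p of a member was 0.777. Over all genes the median difference was 0.00. At an unadjusted p under 0.05 limma had 0 members (0%) and 1157 genes (6.36%). The edgeR interaction of sex and treatment had 8 members (16.7%) and 1401 genes (7.7%), and 0 genes passed after adjustment. That fit enters all 44 sums, so repeated sums of an animal count as replicates of its sex. Nothing is read from its unadjusted counts. For ENSMFAG00000045396 the effect was 2.76 in females and 1.70 in males, a difference of 1.06 ± 0.46 (SE; limma adjusted p = 0.778). For ENSMFAG00000035541 the effects were 2.32 and 2.34. An exact permutation of 2 animals against 2 has 0.333 as its smallest p. Sex and other differences between these animals, which at 48 h include the library sets given below, cannot be told apart.

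The column names of the table carry library tokens (such as Lib1 GL67 or Lib2 GL75) that the labels do not explain and that form 6 sets. Within a set the means of treated and control libraries were set side by side without pairing by animal. The members were chosen on these same libraries, so the counts describe how they spread over the sets and nothing is read from them. At 48 h all 35 late genes were higher with IL-15 in Lib1 GL67, Lib1 GL75 and Lib2 GL75, and 34 were in Lib1 merged, against 43.6% to 51.7% of the 11007 genes that reached 4 CPM. For the 13 early genes at 24 h the numbers were 12 in Lib1 GL66, 13 in Lib1 GL67, 13 in Lib1 GL75, 12 in Lib1 merged and 11 in Lib2 GL75, where 39.2% to 45.6% of the 11007 genes were higher. At 12 h they were 13 in each of the 4 sets that hold both kinds of library, against 35.5% to 38.2% of those genes. Lib1 GL66 holds no treated library at 48 h and Lib1 GL76 only 1 library, so neither gives a value there.

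The late genes are the low end of a wider set. Over the whole table, 176 genes were highest at 48 h with IL-15 at 4 CPM or more, at least 4 times above the 48 h control mean and at least 2 times above the 24 h IL-15 mean. Of these 33 were members, and the highest control mean of the 176 had a median of 3.54 CPM. The same libraries counted on rhesus macaque genes, which cannot be paired with the cynomolgus IDs here, gave 49 genes by the same rule. Of these 39 were highest at 48 h and 10 at 12 or 24 h. Animal 38142 was highest for 32 of the 39 and animal 38157 lowest for 31, and animal 38155 was highest for 7 of the 10. These are the same reads on another gene list and not a second experiment.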

How the data were processed

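Values are the raw read counts of each gene as deposited by the authors, in a table with cynomolgus gene IDs (38550 rows, used here) and another with rhesus IDs (35432 rows, an alternative). The labels' protocols name the Qiagen RNeasy Mini kit for RNA and KAPA mRNA HyperPrep for libraries. For the aligner, counter, genome build and strand handling, nothing is stated in the sources used here, so overlapping genes and near-identical copies may share reads. Members and lists were chosen with earlier results of these data known. The marker and pathway lists need symbols and were not run.

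Counts of 3 libraries per animal and group were summed (44 sums). The fit was edgeR 4.0.16 in R 4.3.3: quasi-likelihood test, TMM, filterByExpr, robust dispersion, the 11 groups with the animal as a further term, and Benjamini-Hochberg adjustment over 18197 genes. Each animal's own level is fitted, so the p-values rest on the spread that is left between the sums of 4 animals. This spread is estimated over all 11 groups. The sexes were compared by limma 3.58.1 on log2 CPM with a prior count of 2. DESeq2 1.42.0, other scalings and limits, and left-out animals and libraries were alternatives. The code was tested on simulated data. The same animal is labelled in every group, which pairs the sums: deviations of treated and control sums of an animal from their group means correlated in 20 of 20 pairs (median r 0.798, lowest 0.563). Library numbers do not pair them (30 of 60 pairs above 0.1).

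Printed IDs are the member with the highest mean CPM, the highest one with another highest time, and the 2 with the lowest ratio of 48 h to highest level among those at 4 CPM by 12 h. The rule gave 3 IDs. The rest are given by counts and ranges.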

Additional observations from a re-analysis of the deposited data

Results flagged for a closer look

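The 3 printed IDs and 2 summed sets in 11 groups each gave 55 groups of 4 values, and 6 values were flagged as lying apart. Of these 6, 5 were animal 38155. A rate of 1 in 20 would give 2.75 flags. The 6 flags are not weighed against that number, because the groups are not independent. The printed IDs are members of the summed sets, and all values come from the same 44 sums. The rule also used IL-15 means, and animal 38155 was the highest animal for 11 of the 13 early genes at their highest time. The summed level of the 13 early genes in animal 38155 was 29.6 CPM in control culture at 48 h against 7.04 to 10.7 CPM in the others, 43.2 CPM with IL-15 at 6 h against 16.3 to 20.1 CPM, and 105.8 CPM with IL-15 at 48 h against 22.3 to 35.9 CPM. ENSMFAG00000000702, which is 1 of those 13 genes, was at 0.628 CPM in control culture at 6 h against 0.411 to 0.433 CPM, and at 1.66 CPM in control culture at 48 h against 0.23 to 0.457 CPM. The other value is ENSMFAG00000035541 in control culture at 24 h, with 0.587 CPM in animal 38157 against 0.234 to 0.248 CPM.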

How the results depend on the processing

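The number of members was 43 to 58 with 1 animal or 1 numbered library left out, and 39 to 44 of the 48 were kept with an animal left out (44 without 38157, where 58 were found). It was 23 with a control limit of 1 CPM, 80 with 2 CPM and 18 with an IL-15 limit of 8 CPM, as stricter and looser limits must give. TMM sizes and DESeq2 size factors gave 50 each with 46 kept, the median of animals 54 with 40 kept, and leaving out the 3 libraries that stand apart from their sister libraries, an alternative chosen after seeing the data, 48 with 47 kept.

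Without the term for the animal (no replicate block) the members called higher with IL-15 were 0 at 2 h and 3 at 6 h, those called lower 0 at 6 and 12 h, and the members higher in successive IL-15 samples 8, 3 and 8 in the steps to 6, 12 and 24 h, with 0 lower in the step to 48 h. With libraries entered singly and the library number as a replicate block they were 4 at 2 h and 15 at 6 h, 17 from 6 to 12 h, 8 lower from 24 to 48 h, and in control culture at 24 h 11 higher and 14 lower; libraries of 1 animal are not independent. Without a filter on low counts 0 were lower at 6 h and 0 in the step to 48 h, where 2 were lower with DESeq2 and without the libraries that stand apart.

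With 1 animal left out, members called higher with IL-15 were 1 to 2 at 2 h, 4 to 7 at 6 h, 20 to 24 at 12 h, 39 to 42 at 24 h and 40 to 44 at 48 h, and 0 to 1 were lower at 6 h. In successive IL-15 samples 9 to 11 were higher in the step to 6 h, 2 to 9 in that to 12 h, 7 to 21 in that to 24 h and 29 to 32 in that to 48 h, where 0 were lower. In control culture 3 to 7 were higher and 8 to 11 lower at 24 h, and 8 to 11 higher and 4 to 9 lower at 48 h. The cause of these differences was not tested. The log2 fold changes of ENSMFAG00000035541 at 48 h and of ENSMFAG00000045396 and ENSMFAG00000000702 at 12 h kept their sign in each of the 10 alternatives, which were not run for their other times. Females against males gave 0 members in each alternative.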
